A study of Mus musculus with 32 samples.

Results

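DQ52 and DST4 are the names of the IGHD4 and IGHD3 families of mouse heavy chain diversity (D) genes. Their joins were taken as all clonotypes, each a distinct CDR3 sequence of a library, whose first listed D gene was IGHD4-1 (DQ52), IGHD3-2 or IGHD3-1 (DST4). There were 119 such clonotypes among 908, of which 799 had any D gene. DQ52 had 57 clonotypes with 11872 reads in 10 mice, all from IGHD4-1. DST4 had 62 clonotypes with 2696 reads in 9 mice, 52 from IGHD3-2 and 10 from IGHD3-1.

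The study read rearranged heavy chain genes from genomic DNA of untreated bone marrow pro-B cells, sorted as B220+ CD43+ and negative for IgM and CD25, of mice 8 weeks old. The groups were WT control mice (5) and Setd2 knockout mice, labelled KO (6); how the knockout was made is not given in the sources used here, and the amplicons measure neither Setd2 nor the markers of the sort. Each PCR paired a primer for 1 VH family (Vh558, Vh7183 or Vhq52) with a JH4 primer, and a product of 500 bp was cut from the gel. The mouse was the replicate: Vh558 covered 4 WT and 5 KO mice, Vh7183 5 and 5, and Vhq52 5 and 4, in 32 libraries. Clone reads per library ran from 387 to 9276 and clonotypes with a D gene from 4 to 164. WT libraries held a median of 20.5 such clonotypes and KO libraries a median of 10, so a KO share often rests on few clonotypes. All 908 clonotypes had a CDR3 of whole codons with no stop codon, so the table holds productive joins only.

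A heavy chain gene is assembled by joining a D gene to a J gene and then a V gene to that DJ unit. Exonucleases trim the ends of each gene, and terminal transferase inserts bases at both junctions. DQ52 is the shortest functional mouse D gene and lies nearest to the J genes; in the order of the RefSeq genes of GRCm38.p6, Ighd4-1 is next to Ighj1, Ighd3-2 is the next D gene, and Ighd3-1 lies beyond Ighd1-1, near the far end of the cluster. IGHD1 (DFL16) and IGHD2 (DSP2) are the families used by most joins, and they serve here as the comparison under the name of longer D genes. Ighd1-1 has 23 bases and the Ighd2 genes 17, against 11 for Ighd4-1, 16 for Ighd3-2 and 17 for Ighd3-1, so for DST4 this name holds for IGHD1 and, by 1 base, for IGHD2 against IGHD3-2.

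The germline D sequences show what these joins could keep. They were rebuilt from alignments without mismatch, with 0 bases in conflict, and capitals mark bases kept by at least 50% of the clonotypes of that gene. Only the last 9 of the 17 bases of IGHD3-1 were seen.
IGHD4-1: ctaACTGGGAc
IGHD3-2: agaCAGCTCAGGCTac
IGHD3-1: tcGGGCTac

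Both main genes were kept in their middle and lost at their ends, a shape that the match rule itself favours. Each match is 1 unbroken stretch of at least 5 nt, which covers the middle of a short gene more readily than its ends. The profile is therefore a description. In DQ52, bases 7 and 8 were kept by 52 of 57 clonotypes (91.2%), base 1 by 5 (8.77%) and the last base, 11, by 28 (49.1%). In IGHD3-2, bases 10 to 12 were kept by 44 of 52 (84.6%), base 1 by 2 and base 16 by 20 (38.5%). The last base was therefore kept more often than the first in both genes. A base inside the gene was matched in 54 of 57 DQ52, 44 of 52 IGHD3-2 and 7 of 10 IGHD3-1 clonotypes. The others, described below, count here as keeping no base. All 44 of IGHD3-2 kept bases 10 to 12, and base 11 of DQ52 was kept by 28 of 54. None of the 7 IGHD3-1 clonotypes reached base 8 or any earlier one.

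**Figure D1:**
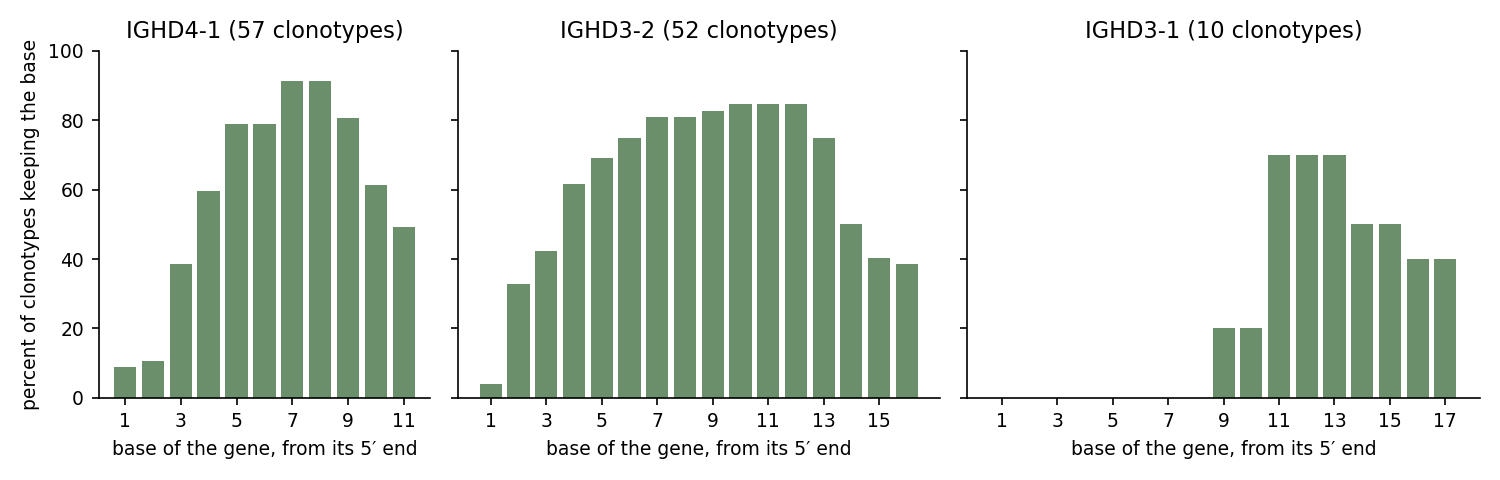
Percent of clonotypes (vertical axis) that kept each base of the D gene, counted from its 5′ end (horizontal axis), for IGHD4-1, IGHD3-2 and IGHD3-1. Clonotypes whose match has no base inside the gene are part of the total. The middle of the gene stands highest in the first 2, at up to 91.2% and 84.6%, and IGHD3-1 has no bar before base 9.

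The joins below are the CDR3 sequences the results turn on, shown with the bases matched to D in capitals. A G or GT after the last base of DQ52 (GGGAC) is a palindromic base, which the aligner's D reference includes; 22 of 57 DQ52 clonotypes and 15 of 62 DST4 clonotypes carried such bases at the 3′ end. The first 6 are the DQ52 joins of KO mice above 10% of the reads of their library, the next 2 those of WT mice, and the next is the longest retained DQ52.
KO mouse 1421, IGHV1-72, IGHJ4: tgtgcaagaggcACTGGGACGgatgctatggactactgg
KO mouse 1423, IGHV1-61, IGHJ4: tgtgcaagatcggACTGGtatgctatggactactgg
KO mouse 1487, IGHV5-6, IGHJ4: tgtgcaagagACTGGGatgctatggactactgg
KO mouse 1487, IGHV2-9, IGHJ4: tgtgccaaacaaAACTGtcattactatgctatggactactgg
KO mouse 1500, IGHV5-4, IGHJ4, first join: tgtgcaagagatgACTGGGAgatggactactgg
KO mouse 1500, IGHV5-4, IGHJ4, second join: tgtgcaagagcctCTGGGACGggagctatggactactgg
WT mouse 1536, IGHV5-4, IGHJ4: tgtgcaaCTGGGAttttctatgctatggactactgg
WT mouse 1432, IGHV5-12, IGHJ4: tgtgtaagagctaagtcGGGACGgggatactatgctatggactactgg
KO mouse 1464, IGHV6-6, IGHJ4: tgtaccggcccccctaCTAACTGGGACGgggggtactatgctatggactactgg

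The share of DQ52 among clonotypes with a D gene was on average higher in KO than in WT mice in each of the 3 amplicons, and none of these differences passed the test. In Vh558 the WT shares were 3.38% in mouse 1418, 5.53% in 1536, 9.52% in 1432 and 16.7% in 1485. The KO shares were 0% in mice 1464 and 1534, 7.38% in 1423, 25.0% in 1500 and 35.0% in 1421. KO mice thus lay on both sides of all WT mice. The WT mean was 8.77% ± 5.85 (SD, n = 4) and the KO mean 13.5% ± 15.8 (SD, n = 5). KO minus WT was 4.70 points (95% interval -14.5 to 29.5; two-sided exact permutation p = 0.595, adjusted p = 0.907 over 7 tests). The direction turned without KO mouse 1421 (-0.68 points) and within the only sequencing batch with 3 mice of each genotype (-1.85). Without KO mouse 1500 the difference was 1.82 points. The other batches with both genotypes gave 8.86 and 24.7 points. Both hold libraries of the same 2 KO mice, 1421 and 1423. The first sets them against 1 WT mouse (1418), the second against 2 (1418 and 1536).

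In Vh7183 the DQ52 share was 0% in WT mice 1418 and 1485, 10% in 1432, 12.5% in 1536 and 12.9% in 1484. It was 0% in KO mouse 1421, 6.67% in 1423, 8.33% in 1464, 37.5% in 1487 and 66.7% in 1500. KO mice 1487 and 1500 stood above every WT mouse, and the other 3 lay within the WT range. The value of mouse 1500 rests on 4 of 6 clonotypes (Wilson 95% interval 30% to 90.3%, counting error only) and that of 1487 on 3 of 8 (13.7% to 69.4%). The WT mean was 7.08% ± 6.56 (SD, n = 5) and the KO mean 23.8% ± 27.9 (SD, n = 5). KO minus WT was 16.8 points (-8.12 to 52.1; exact permutation p = 0.317, adjusted p = 0.741). Without mouse 1500 it was 6.04 points.

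In Vhq52 the share was 0% in WT mice 1418 and 1536, 3.57% in 1484, 10% in 1485 and 16.7% in 1432. It was 0% in KO mice 1464 and 1500, 8.33% in 1487 and 42.9% in 1421. Only KO mouse 1421 exceeded the WT range, with 3 of 7 clonotypes (Wilson 95% interval 15.8% to 75.0%), and without it the difference was -3.27 points. The WT mean was 6.05% ± 7.21 (SD, n = 5) and the KO mean 12.8% ± 20.4 (SD, n = 4). KO minus WT was 6.75 points (-12.2 to 33.5; exact permutation p = 0.690, adjusted p = 0.907). These designs could give a p as small as 0.00794.

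**Figure D2:**
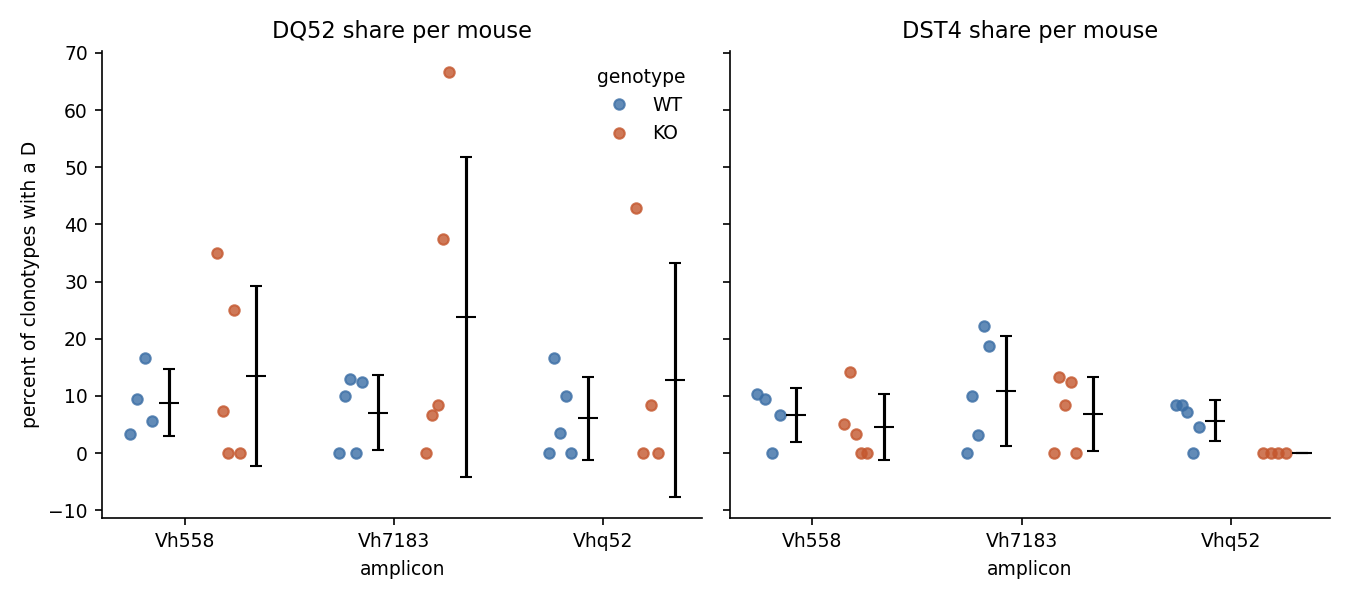
Percent of clonotypes with a D gene that used DQ52 (left) or DST4 (right) in each mouse (points), by amplicon and genotype; black marks are the mean ± SD of the mice. KO mice spread from 0% to 66.7% for DQ52, while no WT mouse exceeded 16.7%, and all 4 KO mice of Vhq52 lie at 0% for DST4.

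Over all amplicons, each mouse's DQ52 share was set against the mean of its amplicon and averaged. KO mice 1500, 1421 and 1487 were the highest of all 11 mice, at 18.6, 14.0 and 10.7 points above the mean, and KO mouse 1534 was the lowest at -11.4. The 5 WT mice lay between -10.8 and 0.10 points. The KO minus WT difference was 7.47 points (-7.49 to 22.7; n = 6 and 5; exact permutation p = 0.242, adjusted p = 0.741). It did not pass the test, and without mouse 1500 it was 4.54 points. The KO minus WT difference was also tested between amplicons, by permuting the genotype over mice, and for DQ52 the 3 p-values were 0.422, 0.820 and 0.623.

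The amplicons differed from each other in DQ52 share by less than the spread between mice. Over mice of both genotypes the Vh558 share minus that of Vh7183 was -4.07 points (95% interval -21.0 to 11.8). Vh558 minus Vhq52 was 2.34 points (-10.8 to 14.8) and Vh7183 minus Vhq52 6.41 (-10.4 to 24.0). The exact permutation p-values were 0.655, 0.716 and 0.477, and each adjusted p was 0.716. Without KO mouse 1500 these differences were -0.08, -0.49 and -0.41 points. The test and its intervals do not pair mice, although mice recur across amplicons. Paired by mouse, with all mice in, the differences were -0.21, 3.65 and 7.39 points (n = 8, 7 and 9 mice). The exact sign-flip p-values were then 0.992, 0.5 and 0.508.

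DST4 was on average lower in KO mice in each amplicon, and this too did not pass the test. In Vh558 the WT mean was 6.61% ± 4.68 (SD, n = 4; range 0% to 10.3%) and the KO mean 4.49% ± 5.79 (SD, n = 5; 0% to 14.1%). In Vh7183 the WT mean was 10.8% ± 9.60 (SD, n = 5; 0% to 22.2%) and the KO mean 6.83% ± 6.52 (SD, n = 5; 0% to 13.3%). The genotypes overlapped in both. In Vhq52 it averaged 5.67% ± 3.53 (SD, n = 5) in WT, where 4 of 5 mice had 4.55% to 8.33%. No KO clonotype of Vhq52 used DST4, 0 of 37, which allows a share of up to 8.11% by counting error. WT had 5 of 84 (5.95%), with 1 of 5 mice at 0%, and the difference within this amplicon was not tested. Over all amplicons the difference was -3.51 points (-8.27 to 1.74; n = 6 and 5; exact permutation p = 0.152, adjusted p = 0.741).

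A single KO mouse held most of the KO DST4 clonotypes. Mouse 1423 had 10 of the 14, and 6 of these were near-identical sequences of 1 IGHV1-81 join with 484 reads whose D match lies outside the gene, as described below. Without mouse 1423 the DST4 difference was -5.06 points (exact permutation p = 0.0159, adjusted p = 0.111). Counting only D matches with at least 5 bases inside the gene gave -4.49 points (exact permutation p = 0.0238, adjusted p = 0.167), and weighting by reads gave -3.32 (exact permutation p = 0.0325, adjusted p = 0.227). These were the settings with the lowest p-values, and none passed. A retained D of at least 6 nt gave -1.79 points (exact permutation p = 0.519), and at least 10 reads -2.44 (exact permutation p = 0.364). Without sequences shared between mice the difference was -2.54 (exact permutation p = 0.323), and with near-identical sequences merged -2.94 (exact permutation p = 0.307). Over all clonotypes it was -3.25 (exact permutation p = 0.139).

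By reads, the largest DQ52 joins belonged to KO mice. The IGHV1-72 join of KO mouse 1421 held 2082 of 5357 reads of the first Vh558 library (38.9%, Wilson 95% interval 37.6% to 40.2%) and 2865 of 8691 reads of the second (33.0%, 32.0% to 34.0%). These intervals measure the counting of reads only, and those of the first and second library did not overlap. The IGHV1-72 join was dominant in both libraries of this mouse, and a variant 1 base away held another 13.2% of the second. In Vh7183 the IGHV5-6 join of mouse 1487 held 924 of 3045 reads (30.3%), and the 2 IGHV5-4 joins of mouse 1500 held 101 and 97 of 387 reads (26.1% and 25.1%). The IGHV1-61 join of mouse 1423 held 1761 of 8651 reads in Vh558 (20.4%), and was not found in the second library of that mouse. The IGHV2-9 join of mouse 1487 held 557 of 2992 reads in Vhq52 (18.6%).

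In all, 8 of 23 KO clonotypes of DQ52 exceeded 10% of their library's reads, from 6 joins in 4 mice, and they held 96.1% of the 9916 KO reads of DQ52. In WT, 2 of 34 did so, at 13.2% (IGHV5-4, mouse 1536) and 10.8% (IGHV5-12, mouse 1432). Among the longer D genes 29 of 148 KO clonotypes (19.6%) and 32 of 483 WT clonotypes (6.63%) were as large, so large clonotypes were more frequent in KO libraries for these genes as well. None of the 14 KO clonotypes of DST4 exceeded 2.10%. In WT, 2 of 48 exceeded 10%, an IGHV5-6 join of mouse 1432 (14.0%) and an IGHV2-3 join of mouse 1536 (11.7%). These counts were not tested.

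**Figure D3:**
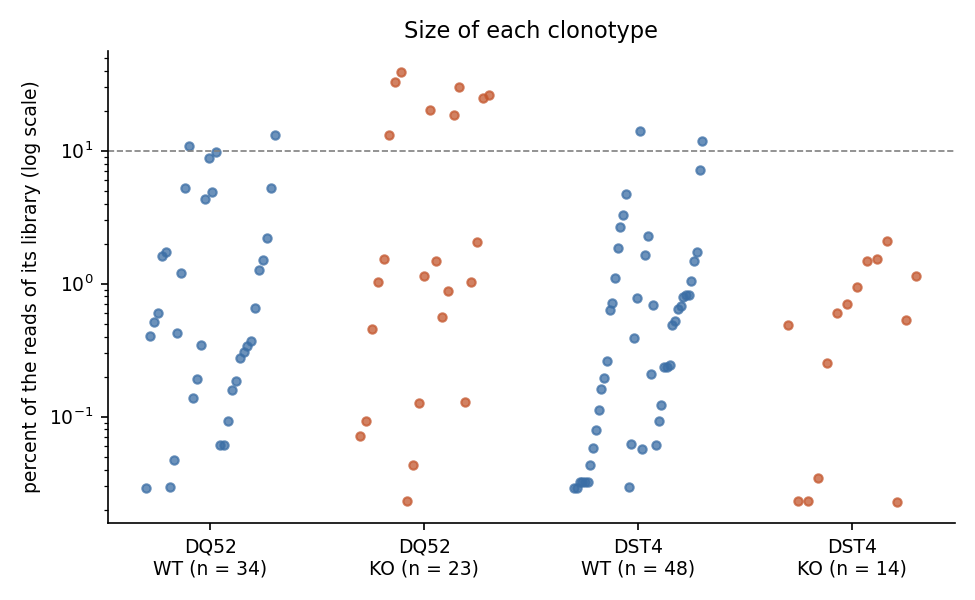
Reads of each DQ52 and DST4 clonotype as a percent of the clone reads of its library (log axis), by family and genotype, with mice side by side within each group; the dashed line marks 10%. There are 8 KO points of DQ52 above the line, up to 38.9%, and none of KO DST4.

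The CDR3 of DQ52 joins was shorter than that of joins with the longer D genes from the same libraries. DQ52 joins averaged 39.2 nt ± 6.07 (SD over 10 mice) against 45.5 nt ± 2.60 for IGHD1 and IGHD2 joins. The difference was -6.36 nt (95% interval -9.17 to -3.05; two-sided exact sign-flip permutation test, p = 0.00586, adjusted p = 0.0205 over 7 tests), and it was below 0 in 9 of 10 mice. In WT mice it was -11.3 nt in 1484, -6.67 in 1536 and in 1418, -4.97 in 1485 and -3.65 in 1432. In KO mice it was -11.6 nt in 1500, -8.35 in 1487, -8.09 in 1421 and -6.45 in 1423. Only KO mouse 1464 went the other way, at 4.2 nt, and it had a single DQ52 clonotype, the 54 nt CDR3 shown above. Against IGHD2 alone the difference was -4.95 nt (exact sign-flip p = 0.0332) and no longer passed after adjustment (adjusted p = 0.109).

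DST4 joins were shorter by less, and the call was less stable. Their mean was 41.6 nt ± 4.05 (SD over 9 mice) against 45.7 nt ± 3.10, a difference of -4.19 nt (-7.10 to -1.06; exact sign-flip permutation p = 0.0234, adjusted p = 0.0410), below 0 in 8 of 9 mice. KO mouse 1487, with 1 clonotype, was at 4.5 nt. With only D matches of at least 5 bases inside the gene it was -2.63 nt (exact sign-flip permutation, adjusted p = 0.205), and with 1 mouse left out in turn it passed in 3 of 11 sets, without mouse 1487 and without mice 1500 and 1534, which have no DST4 join. Within DQ52 the CDR3 length, centred on the mean of each amplicon, differed between genotypes by -0.80 nt (KO minus WT; -6.68 to 7.28; exact permutation p = 0.944, adjusted p = 0.944). Without KO mouse 1464, whose single DQ52 clonotype is the 54 nt one, it was -4.59 nt (exact permutation p = 0.0159, adjusted p = 0.111).

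**Figure D4:**
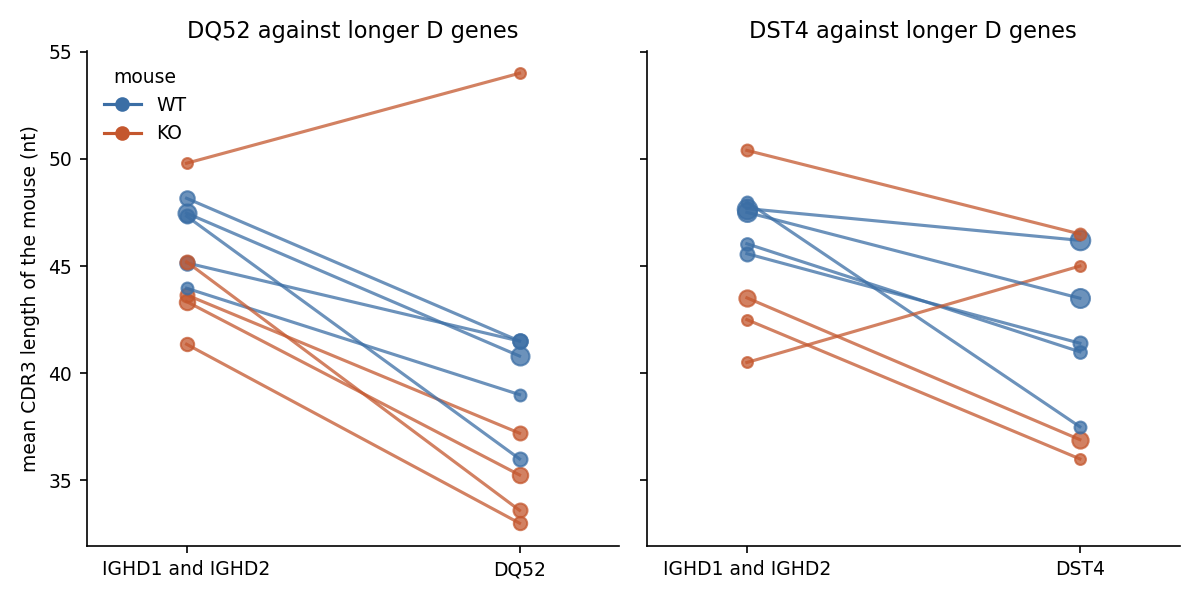
Mean CDR3 length in nucleotides of IGHD1 and IGHD2 joins (left of each panel) and of DQ52 or DST4 joins (right) in each mouse, joined by a line coloured by genotype; larger points hold more clonotypes. The line falls for 9 of 10 mice in the DQ52 panel and 8 of 9 in the DST4 panel.

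Most of the shortening lay in the D bases themselves. DQ52 joins kept 7.72 nt ± 1.67 of D against 12.1 nt ± 1.42 for the longer genes (SD, n = 10 mice), a difference of -4.42 nt; the D gene is what chose these joins, so this is a description. The J part was shorter by 1.61 nt on average (a difference of -1.61 ± 2.25, SD) and the V part differed by -0.09 nt. Inserted bases differed by -0.24 nt (-2.25 to 1.96; exact sign-flip permutation p = 0.793, adjusted p = 0.793). DQ52 joins carried 4.42 nt ± 2.65 between V and D and 2.21 nt ± 1.27 between D and J (SD, n = 10 mice). There was no inserted base at the V to D junction in 4 of 57 clonotypes and at the D to J junction in 13.

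DST4 joins kept 9.30 nt ± 2.31 of D (SD, n = 9 mice), 2.50 nt less than the longer genes of the same libraries (a difference of -2.50). IGHD3-2 clonotypes kept 11.3 nt on average and up to 17, with palindromic bases included (IGHV1-39 and IGHV5-2 joins of WT mouse 1536), and IGHD3-1 clonotypes 6.1 nt and at most 8. Inserted bases in DST4 joins were 5.36 nt ± 3.14 against 6.59 ± 2.30, a difference of -1.22 nt (-3.17 to 2.08; exact sign-flip permutation p = 0.379, adjusted p = 0.526). Without KO mouse 1487 it was -2.41 nt (exact sign-flip permutation, adjusted p = 0.0273). The V to D insert was 1.39 nt shorter (a difference of -1.39 ± 1.17, SD) and below that of the longer genes in 8 of 9 mice, with no test.

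**Figure D5:**
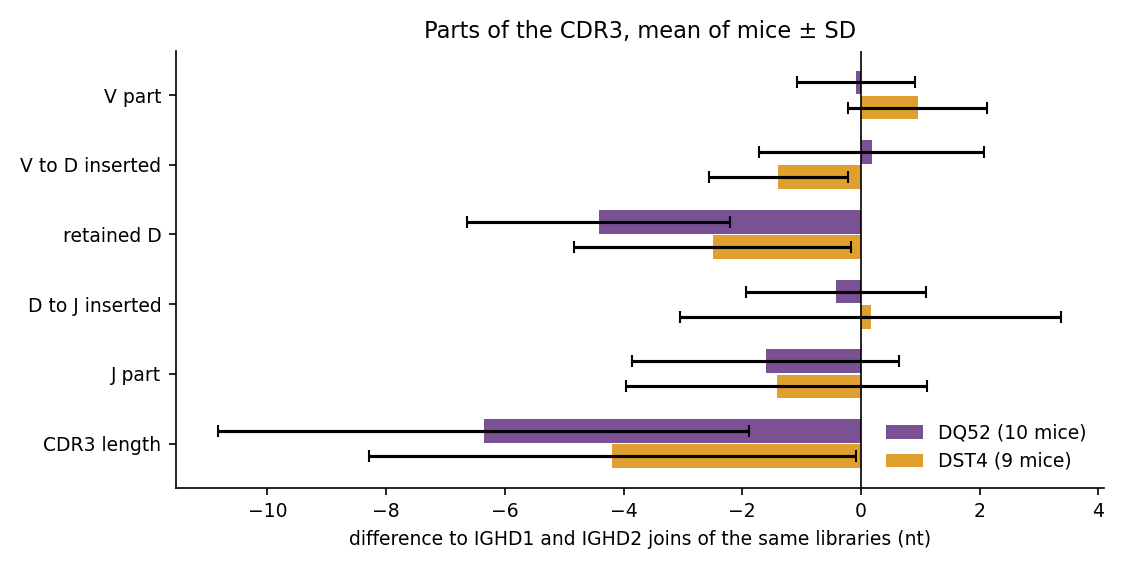
Difference in nucleotides between DQ52 or DST4 joins and IGHD1 and IGHD2 joins of the same libraries, for each part of the CDR3 and for its whole length; bars are means over mice and lines ± 1 SD. The largest part is the retained D, at -4.42 nt for DQ52 and -2.50 nt for DST4.

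DQ52 lost fewer bases from both ends than the longer genes, but its length limits how many it can lose. Among clonotypes with a match inside the gene it lost 2.73 nt ± 1.08 at the 5′ end against 3.94 ± 0.89 (a difference of -1.21, 95% interval -2.08 to -0.26; exact sign-flip permutation p = 0.0176, adjusted p = 0.0410) and 0.98 nt ± 0.67 at the 3′ end against 2.97 ± 1.13 (-1.98, -3.14 to -0.78; exact sign-flip permutation p = 0.00391, adjusted p = 0.0205; n = 10 mice). No D match in the table is shorter than 5 nt, so a match to DQ52 within its 11 bases can lose at most 6 nt. Longer D joins were then held to the same limit, and both sides to at least 5 bases inside the gene. This kept 271 of 631 longer D joins. The differences were 0.69 nt at the 5′ end (exact sign-flip p = 0.146) and -0.40 nt at the 3′ end (exact sign-flip p = 0.328), and neither passed. As the limit selects longer D joins by the bases they lost, it cannot decide whether trimming differs. Without this limit and with 1 mouse left out in turn, the 5′ difference passed in 3 of 11 sets and the 3′ difference in 11. The 3′ end of DQ52 was untrimmed in 28 of 54 clonotypes and the 5′ end in 5. In DST4 these counts were 24 and 2 of 51, in IGHD2 204 and 66 of 403, and in IGHD1 32 and 9 of 203. A frequent untrimmed 3′ end was thus also seen in IGHD2. Over clonotypes the mean 3′ loss was 1.06 nt in DQ52, 1.95 nt in IGHD2 and 4.67 nt in IGHD1.

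The short matches also bound what can be called DQ52. A match of exactly 5 nt made up 14 of 57 DQ52 clonotypes (24.6%), against 6 of 62 for DST4 (9.68%), 5 of 209 for IGHD1 (2.39%) and 30 of 422 for IGHD2 (7.11%). The DQ52 matches of KO joins IGHV1-61 and IGHV2-9 above are of this kind. All 6 such DST4 matches were among the 10 IGHD3-1 clonotypes, as no IGHD3-2 match was shorter than 6 nt. IGHD3-1 and IGHD3-2 also both end in GGCTAC. Calls of IGHD3-1 are therefore bounded by short matches as well. Only 1 DQ52 clonotype kept all 11 bases, the IGHV6-6 join of KO mouse 1464, and no DST4 clonotype kept its whole gene. Each of the 119 clonotypes had 1 D gene listed.

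Some matches lay in the inverted copy of the gene that flanks it in the aligner's reference. This was so for 3 DQ52 clonotypes and 11 DST4 clonotypes, which had no base inside the gene. By their place in that reference they read as the reverse complement of part of the D gene. Of the 11, 1 has a mismatch, and 3 assigned to IGHD3-1 reach bases not seen in the forward orientation. The main examples follow.
DQ52, WT mouse 1418, IGHV1-26: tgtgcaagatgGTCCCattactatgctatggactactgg
DQ52, WT mouse 1536, IGHV1-74: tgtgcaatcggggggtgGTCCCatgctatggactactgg
DST4, KO mouse 1423, IGHV1-81: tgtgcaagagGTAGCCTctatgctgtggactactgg
DST4, WT mice 1432 and 1484, IGHV5-6: tgtgcaagacgCCGAGgggactactgg

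The IGHV1-81 family of KO mouse 1423 supplied 6 of these 11 DST4 clonotypes. Such matches were 5 to 9 nt long. Whether they are D genes joined in inverted orientation or other bases that happen to match was not tested.

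Of the 3 reading frames of DQ52, the third had the most clonotypes and the first the most reads. Frame k is defined here by codons that begin at germline base k. Among 53 DQ52 clonotypes with at least 5 bases inside the gene, 18 read frame 1, 11 frame 2 and 24 frame 3 (34.0%, 20.8% and 45.3%). With near-identical sequences of a mouse counted once, the numbers were 13, 11 and 22 of 46 joins. By reads the order turned, with 6751 in frame 1, 1021 in frame 2 and 3889 in frame 3. Frame 2 holds a stop codon at bases 2 to 4 of the gene, and all 11 clonotypes in it had lost at least 2 bases at the 5′ end; the table holds no stop codon, so this had to be so. In WT the counts were 9, 9 and 13 of 31 clonotypes, and in KO 9, 2 and 11 of 22; in KO, 4 of the 9 in frame 1 are the IGHV1-72 join of mouse 1421 and its variants.

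IGHD3-2 has no stop codon in any frame. Its 44 clonotypes read frames 1, 2 and 3 in 13, 21 and 10 cases, or 10, 15 and 10 of 35 joins. Frame 2 thus led with 47.7% of clonotypes. Of its 21 clonotypes 19 were from WT mice, as were 37 of all 44. Most of the 21 came from WT mouse 1418, and among the other mice frame 2 had the fewest clonotypes. Frames 1, 2 and 3 were seen in 5, 4 and 6 mice.

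IGHJ4 was the partner of most clonotypes of both families, in a PCR whose reverse primer is in JH4 and whose product was cut by size. DQ52 was joined to IGHJ4 in 41 of 57 clonotypes (71.9%), to IGHJ2 in 8 and to IGHJ3 in 8, with none to IGHJ1. By amplicon, IGHJ4 took 27 of 32 in Vh558, 13 of 17 in Vh7183 and 1 of 8 in Vhq52, where IGHJ3 took 6. Those 6 were 4 IGHV2-2 clonotypes from 3 joins and 2 IGHV2-5 clonotypes from 1 join. Among the longer D genes IGHJ4 took 377 of 414 (91.1%), 63 of 114 (55.3%) and 46 of 103 (44.7%). In Vhq52 IGHJ3 took 25 of those 103 (24.3%). The amplicons were not compared by a test here. The IGHJ4 share of DQ52 exceeded that of longer D genes by 6.73 points, within the spread of mice (-11.6 to 25.5; exact sign-flip permutation p = 0.451, adjusted p = 0.526). Between genotypes the mouse means were 67.3% ± 19.9 in WT and 72.0% ± 21.7 in KO (SD, n = 5 each), a difference of 4.67 points (-26.7 to 35.0; exact permutation p = 0.778, adjusted p = 0.907).

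DST4 was joined to IGHJ4 in 46 of 62 clonotypes (74.2%), to IGHJ2 in 10, to IGHJ3 in 5 and to IGHJ1 in 1. Of the 46, 40 were in Vh558, and WT mice 1418 and 1536 held 19 and 16. In Vh7183 IGHJ2 took 8 of 12 clonotypes and IGHJ4 3, and in Vhq52 IGHJ4 took 3 of 5. With each mouse weighted equally the IGHJ4 share was 41.2% ± 40.8 (SD, n = 9 mice) against 68.2% ± 20.6 for the longer D genes of the same libraries. This difference of -27.0 points, below 0 in 7 of 9 mice, was not tested. It rests mainly on mice with 1 or 2 DST4 clonotypes. These were at -85.7 points (1485), -66.7 (1421), -62.3 (1464) and -25 (1487). Mice 1418, 1536 and 1423, with 20, 18 and 10 clonotypes, were at 3.22, -1.49 and -0.82. Mice 1432 and 1484, with 5 and 3, were at -10.4 and 6.36. The counts also differed between genotypes. In WT, 40 of 48 clonotypes used IGHJ4 (83.3%); in KO, 6 of 14 did, and all 6 were the inverted IGHV1-81 match of mouse 1423. The other 8 KO clonotypes, from 4 mice, used IGHJ2 or IGHJ3. Longer D genes used IGHJ4 in 407 of 483 WT clonotypes (84.3%) and 79 of 148 KO clonotypes (53.4%). The difference for DST4 was not tested.

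DQ52 was found with 27 V genes, 16 of them once. Those with at least 3 clonotypes were IGHV1-26 (7 clonotypes, 6 joins, 4 mice), IGHV5-4 (7, 5 joins, 4 mice), IGHV1-72 (6, 3 joins, 2 mice), IGHV2-2 (4, 3 joins, 3 mice), and IGHV1-22, IGHV1-53 and IGHV5-17 (3 each). IGHV5-4 had the largest DQ52 share of these, 7 of its 29 clonotypes with a D gene (24.1%), against 57 of 799 over all V genes. Of the 7, 6 were from KO mice, and 4 of these from mouse 1500. DST4 was found with 19 V genes, 5 of them once. IGHV1-50 had 9 of 20 D clonotypes with DST4 (45.0%), from 5 joins of 2 WT mice, against 62 of 799 over all V genes. These V genes were named for their large shares, and the shares were not tested.

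IGHV5-2 paired with DST4 across the most mice. It had 5 of 13 D clonotypes with DST4 (38.5%), each a different join in a different mouse, 2 WT and 3 KO. All 5 used IGHD3-2 and none used IGHJ4. They are shown because 1 pairing of V and D recurs here with 5 different sequences.
WT mouse 1432, IGHJ2: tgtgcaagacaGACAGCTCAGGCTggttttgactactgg
WT mouse 1536, IGHJ2: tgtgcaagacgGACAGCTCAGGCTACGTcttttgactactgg
KO mouse 1423, IGHJ3: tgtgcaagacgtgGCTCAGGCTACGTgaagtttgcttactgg
KO mouse 1464, IGHJ2: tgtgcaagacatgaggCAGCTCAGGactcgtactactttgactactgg
KO mouse 1487, IGHJ2: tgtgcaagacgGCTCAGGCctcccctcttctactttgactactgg

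The other V genes with at least 3 DST4 clonotypes were IGHV1-81 (6, 1 join), IGHV1-55 (5), IGHV1-74 (5), IGHV1-72, IGHV5-6, IGHV1-53 and IGHV1-19 (4 each), and IGHV2-3 (3).

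Clonotypes with a CDR3 sequence found in over 1 mouse were 4 of 57 for DQ52 and 4 of 62 for DST4. For IGHD1 they were 11 of 209 and for IGHD2 21 of 422. Those of DQ52 and DST4 were all within Vh7183 or Vhq52, each of which was sequenced as 1 batch. For DQ52 there were 2 such sequences. The IGHV5-17 sequence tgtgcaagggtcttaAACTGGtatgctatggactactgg had 54 reads in WT mouse 1432 and 129 in WT mouse 1484. The second IGHV5-4 join of KO mouse 1500 shown above had 97 reads there and 2 in KO mouse 1423. For DST4 the IGHV5-6 sequence shown above had 145 reads in WT mouse 1432 and 33 in WT mouse 1484, and the IGHV2-3 sequence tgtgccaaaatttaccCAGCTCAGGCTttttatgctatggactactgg had 351 in WT mouse 1536 and 6 in WT mouse 1418. Whether these were joins made independently or reads carried between libraries was not tested.

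Repeat Vh558 libraries of the same 4 mice shared few of these sequences. Of 28 DQ52 clonotypes in those libraries 4 were also in the other library of the mouse, and of 42 DST4 clonotypes 8 were. With at least 10 reads it was 4 of 18 and 7 of 23. The shared DQ52 sequences were from WT mouse 1418 and KO mouse 1421, and those of DST4 from WT mouse 1418 and KO mouse 1423. In WT mouse 1536 no clonotype of either family was in both libraries. Its second library had 11 of each family. Joins of other D genes were not counted in this way, so low sharing cannot be read as a trait of these families. Each library thus sampled a part of the joins, and a missing join says little.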

How the data were processed

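The authors deposited 1 table of the whole series with the read count of each clonotype, not normalized; other deposited columns give gene names, D alignments and positions within the CDR3 in nucleotides (other quantities). The series title names MiXCR; the sources used here give no version, settings or genome build. The table held 930 entries of 34 libraries, and 2 libraries were not used because their names match the clone list of no sample. Clonotypes had at least 2 reads.

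Segments were cut by the deposited positions, since the deposited D sequence of all 119 members starts 1 base before its position. D references have 3 times the length of the gene, which is flanked by its reverse complement. Trimming was counted from the gene ends, for matches with a base inside it. Of DQ52 members 46 of 57, and of DST4 members 45 of 62, were also in the deposited clone list of their sample, where D names are those of the human locus.

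Values of repeat libraries were averaged per mouse for shares. Shares over all amplicons were centred on each amplicon's mean. Genotypes were compared by exact permutation over mice (the share of reassignments with at least as large an absolute difference). Amplicons were compared by exact permutation of amplicon labels over mouse values, with mice not paired. Families were compared with longer D genes by exact sign flips of mouse means. Benjamini-Hochberg adjustment was made within 7, 3 and 7 tests (genotypes, amplicons, longer D genes) at a threshold of 0.05. Intervals (95%) invert these tests. Merging joined sequences of a mouse 1 base apart. Mouse numbers recur across amplicons and name the same animal, which is the source of the paired alternative. Nothing in the labels says that repeat libraries were separate cultures, so only mice count as replicates. The tests were checked on simulated data. The members, lists and comparisons were chosen with earlier results of these data known. Named were all genes of both families, all J genes, V genes with at least 3 members, joins above 10% of reads or in over 1 mouse, and the longest and shortest retained D; the IGHV5-2 joins, and the joins with mixed ends or a second D match in the closing section, were singled out after their values were seen. Python 3.11.15, numpy 2.4.6, scipy 1.17.1 and pandas 2.3.3 were used.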

Additional observations from a re-analysis of the deposited data

How the results depend on the processing

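No genotype or amplicon comparison passed under any alternative. Mouse as a replicate block gave -0.21, 3.65 and 7.39 points for Vh558 minus Vh7183, Vh558 minus Vhq52 and Vh7183 minus Vhq52, and changed no call. Counting only D hits clear of a second family changed nothing, since each member has 1 hit.

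With at least 10 reads the DQ52 differences were -2.94 points (KO minus WT, Vh558), -0.96 (Vh558 minus Vhq52) and -0.17 (IGHJ4 share against longer D genes). A retained D of at least 6 nt gave -1.36 points for Vh558 minus Vhq52 and 0.48 nt for inserted bases, and took the KO minus WT difference in Vh558 from 4.70 to 0.22 points, and that of DST4 over all amplicons from -3.51 to -1.79. The batch with 3 mice of each genotype gave -1.85 points in Vh558. Merging near-identical sequences, chosen after seeing the data, gave -3.33 points for the DQ52 IGHJ4 share (KO minus WT) and 1.84 for the DQ52 share in Vh558.

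The lower 5′ trimming of DQ52 lost its call weighted by reads (-0.81 nt), with a retained D of at least 6 nt (-1.25), in IGHJ4 joins (-0.64) and against IGHD2 alone (-0.98), and turned to 0.69 nt with longer D joins under the same limit, an alternative added after seeing the data. The 3′ difference lost it against IGHD2 alone (-1.72) and under that limit (-0.40). The shorter CDR3 of DQ52 lost it against IGHD2 alone (-4.95 nt). That of DST4 lost it with at least 10 reads (-6.06), weighted by reads (-5.62), with a retained D of at least 6 nt (-2.43), without sequences shared between mice (-2.93), in IGHJ4 joins (-6.18), against IGHD2 alone (-3.05) and with 5 bases inside the gene, also added (-2.63).

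With each mouse left out in turn, the DQ52 KO minus WT differences ran from -0.68 to 8.07 points in Vh558, from 6.04 to 22.7 in Vh7183, from -3.27 to 11 in Vhq52, from 4.54 to 10.2 over all amplicons, from -4.59 to 0.69 nt in CDR3 length and from -2.33 to 11.2 points in IGHJ4 share. Vh558 minus Vh7183 ran from -8.74 to -0.08 points, Vh558 minus Vhq52 from -0.49 to 3.76 points and Vh7183 minus Vhq52 from -0.41 to 12.4. Against longer D genes, DQ52 inserted bases ran from -0.86 to 0.16 nt, 5′ trimming from -1.53 to -1.0 (called in 3 of 11 sets), DST4 CDR3 length from -5.28 to -3.40 (3 of 11) and DST4 inserted bases from -2.41 to -0.87 (1 of 11, without mouse 1487). DQ52 CDR3 length (-7.53 to -5.78 nt) and 3′ trimming (-2.21 to -1.69) were called in all 11. The few clonotypes per KO library limit all shares.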

Other observations

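In 1 of the 119 clonotypes the inserted bases held a match of at least 8 nt to another D gene. This was a DQ52 join of WT mouse 1536 with 3 reads, IGHV1-39 and IGHJ4, with the CDR3 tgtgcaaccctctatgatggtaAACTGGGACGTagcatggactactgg. Its 15 bases between V and D contain the first 11 bases of IGHD2-3, TCTATGATGGT. Whether 2 D genes were joined here was not tested, and no such count is given for joins of other D genes.

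A few rare clonotypes combined the ends of larger ones. In 4 of the 119, the start of a clonotype with at least 10 times more reads and the end of another, both from the same library, together covered the whole CDR3. The clearest was a 2-read IGHV1-55 clonotype of WT mouse 1418, whose first 30 nt are those of an IGHV1-55 join with 227 reads and whose last 37 nt are those of an IGHV1-50 join with 327 reads.
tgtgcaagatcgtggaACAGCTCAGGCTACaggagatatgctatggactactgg
The others were 2 further DST4 clonotypes of the same mouse, with 4 and 2 reads, and a 2-read DQ52 clonotype of KO mouse 1423 that ends with the last 25 nt of the IGHV1-61 join of 1761 reads. The part of PCR in these was not tested, and no such count is given for joins of other D genes.

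No DQ52 or DST4 share of a mouse stood apart from its group by Dixon's ratio, in 11 groups examined.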
